A study of Mus musculus with 4 samples.

Results

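The RNA levels of 9 genes of iron storage, uptake, export and sensing (Fth1, Ftl1, Tfrc, Trf, Slc11a2, Slc40a1, Aco1, Ireb2 and Hmox2) were examined in laser-captured spinal motor neurons of SOD1-YFP transgenic mice. The genes were chosen by symbol, and each had 1 entry among the 27189 genes of every library. All 4 mice carried a human genomic SOD1 transgene fused to YFP on a C57BL/6J x SJL/J background and were 3 months old, when the G85R strain is presymptomatic. The 2 wild-type libraries came from strain 592, which carries the wild-type fusion. The 2 G85R libraries were made from strain 737, whose fusion has the G85R mutation and which later develops paralysis. Each library was made from the pooled motor neuron cell bodies of 1 mouse, and cell bodies with large aggregates were not captured. Strain 737 has far more transgene copies than strain 592, and its insertion lies on chromosome 4, the chromosome that also holds Aco1, so that mutation, copy number and insertion cannot be told apart here.

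Cells take up iron bound to transferrin, the product of Trf, through the transferrin receptor, the product of Tfrc. Iron then leaves the endosome through the transporter DMT1 (Slc11a2), is stored inside ferritin shells of heavy (Fth1) and light (Ftl1) chains, and is exported by ferroportin (Slc40a1). The iron regulatory proteins IRP1 (Aco1) and IRP2 (Ireb2) bind RNA hairpins called iron-responsive elements when iron is scarce. Bound near the start of an mRNA they block its translation, and bound behind the coding sequence of Tfrc they stabilize the mRNA. Heme oxygenase 2 (Hmox2), the constitutive enzyme of neurons, releases iron from heme. In the central nervous system transferrin mRNA is known mainly from oligodendrocytes.

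Because these hairpins set several of the 9 genes apart, they were looked for in the transcripts of the mouse annotation on NCBIM37, the assembly that UCSC names mm9 and to which the reads were mapped. The search was for C, 5 bases, the loop CAGTGN and 5 bases that pair with the 5 before the loop, G-T pairs allowed, on the transcribed strand. It found a match in 4 of the 9 genes. In Fth1 the shown stretch lies on the plus strand at chr19:10057223-10057249, and in Ftl1 on the minus strand at chr7:52715150-52715176, both in the 5′ untranslated region. The match of Slc40a1 is also in the 5′ untranslated region, on the minus strand at chr1:45982311-45982337. Tfrc has 4 matches on the plus strand in its 3′ untranslated region, at chr16:32631306-32631332, chr16:32631685-32631711, chr16:32631750-32631776 and chr16:32631797-32631823. Each lies within 1 exon, and those of Tfrc are in 1 of its 3 annotated transcripts. The stretches are shown 5′ to 3′ as DNA with 5 bases on each side, the unpaired C and the loop in capitals:
Fth1: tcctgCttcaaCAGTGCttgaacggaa
Ftl1: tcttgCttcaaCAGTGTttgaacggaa
Slc40a1: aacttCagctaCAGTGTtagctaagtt
Tfrc 1: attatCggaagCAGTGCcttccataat
Tfrc 2: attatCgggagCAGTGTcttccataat
Tfrc 3: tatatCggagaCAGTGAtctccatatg
Tfrc 4: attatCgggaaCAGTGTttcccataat

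The stretches of both ferritin genes were identical at 25 of 27 bases, whereas that of Fth1 shared 9 to 11 of 27 bases with those of Tfrc. Among the 4 of Tfrc, pairs shared 17 to 25 bases. Such a match was found in the 5′ untranslated region of 33 of 19945 genes (0.165%) and in the 3′ untranslated region of 125 of 20007 genes (0.625%). With 4 of 5 pairs required, Slc11a2 also had a match, in the 3′ untranslated region of 2 of its 8 transcripts on the minus strand at chr15:100225585-100225611, but 4.05% of genes then had a match in that region. It reads as follows:
Slc11a2: gccatCagagcCAGTGTgtttctatgg
No match under either setting was found in the transcripts of Trf, Aco1, Ireb2 or Hmox2.

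**Figure D1:**
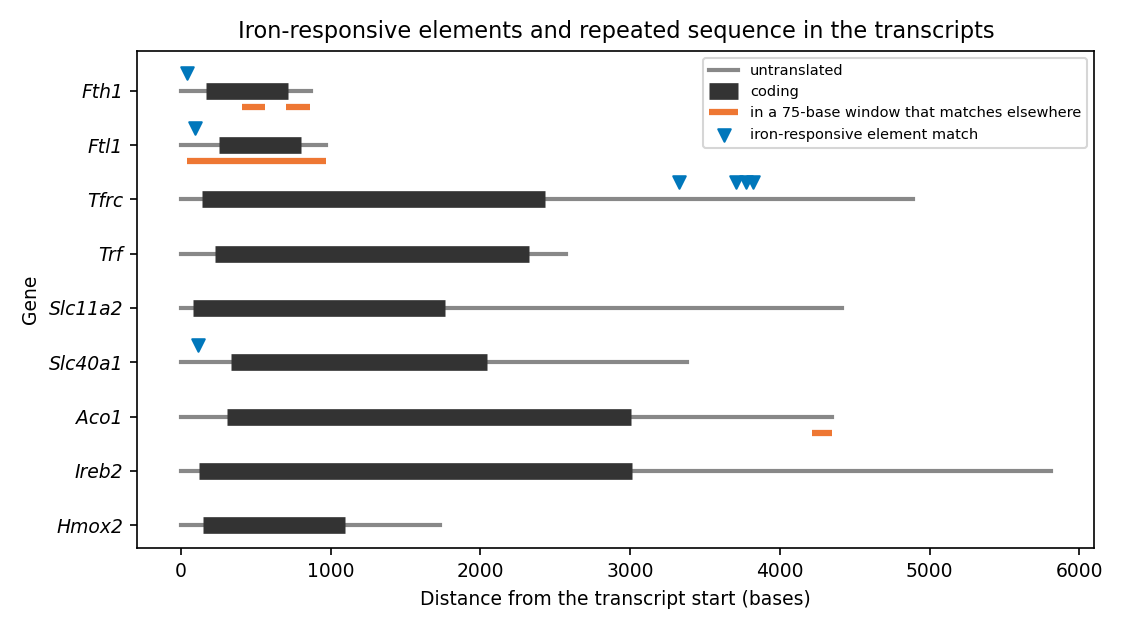
Transcripts of the 9 genes drawn to scale, in bases from the transcript start, with untranslated parts as thin and coding parts as thick lines. Triangles mark the iron-responsive element matches, at base 36 of Fth1, 84 of Ftl1, 108 of Slc40a1 and between 3321 and 3828 of Tfrc, and orange bars mark bases covered by 75-base windows that also match another place in the genome with at most 2 mismatches.

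The libraries held an estimated 21560318 to 25186594 reads on genes, and 1 read was worth a median RPKM of 0.0195 to 0.0226. RPKM are reads scaled to the length of the transcript and the mapped reads of the library, so that levels of different genes can be set side by side. The reads behind a gene were estimated from the authors' second value, to which 1 read had been added, and are not exact counts. Motor neuron markers were abundant in all 4 libraries, with Prph, the peripherin gene, at 647 to 870 RPKM. Mouse Sod1 had 96.3 and 146 RPKM in wild-type against 124 and 150 in G85R, which does not check the human transgene. In this bulk RNA, fewer cells of a type and less RNA per cell cannot be told apart.

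Fth1 had the highest RPKM of the 9 genes and ranked 22 among all 27189 entries by mean RPKM, at 1022 over the 4 libraries. Hmox2 followed at 119 RPKM, Trf at 94.1, Tfrc at 60.8, Slc11a2 at 11.8, Aco1 at 7.52, Ireb2 at 5.64, Slc40a1 at 0.714 and Ftl1 at 0.361. The place of Ftl1 in this order is uncertain, because its sequence is largely repeated elsewhere. The ranges over the 4 libraries did not overlap between any neighbors in this order except Slc40a1 and Ftl1. The mRNA of the exporter ferroportin was listed below those of the transferrin receptor and both iron regulatory proteins.

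**Figure D2:**
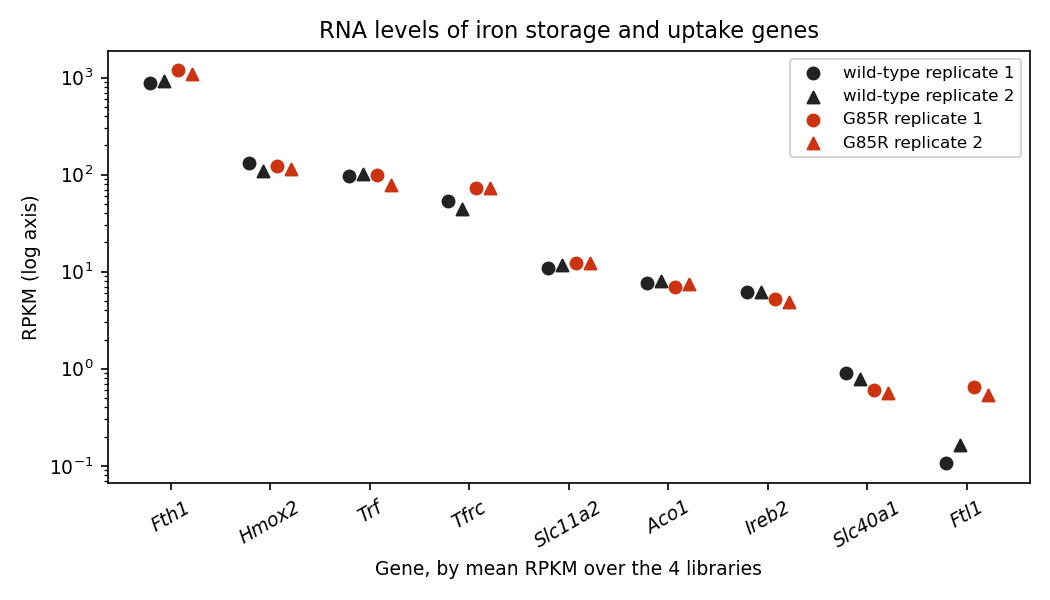
RPKM of each gene in each of the 4 libraries on a log axis, wild-type in black and G85R in red, circles for replicate 1 and triangles for replicate 2. Fth1 stands alone at 884 to 1187 RPKM, while Slc40a1 and Ftl1 lie below 1 in all libraries. The value of Ftl1 cannot be compared with that of Fth1, because its sequence is largely repeated elsewhere.

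The sequence of Ftl1 is largely repeated elsewhere. Of its 75-base transcript windows, the read length used, 67.4% matched another place in the genome exactly and 95.6% with at most 2 mismatches, at 16 other loci. The same share was 14.9% for Fth1, at 2 other loci, and 0.725% for Aco1. It was 0 for Tfrc, Trf, Slc11a2, Slc40a1, Ireb2 and Hmox2. The study counts uniquely mapped reads, but whether reads with several matches entered the RPKM is not given in the sources used here. The part of these copies in the low value of Ftl1 was not tested. The RPKM of Ftl1 can therefore not be compared with that of Fth1.

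For the comparison of the genotypes, limma was fitted to log2(RPKM + 0.1) of the 11530 genes whose RPKM averaged 1 or more over the libraries, with Benjamini-Hochberg adjustment over all of them. On this scale changes of genes with a low RPKM are understated. Of the 9 genes 7 passed the minimum, Ftl1 and Slc40a1 falling below it, and 0 of the 7 had an adjusted p under 0.05. Over all tested genes 0.642% were called, 0.269% higher and 0.373% lower in G85R, and at an adjusted p under 0.1, where 1.23% of all tested genes passed, there were again 0 of the 7. At an unadjusted p under 0.05 there were 2 of the 7, Tfrc and Fth1, where 11.0% of all tested genes passed. The genotypes did not overlap in 5 of the 7 genes, compared with 41.2% of all tested genes. Of these 5 genes, 3 were higher in G85R and 2 lower, for which the shares of all tested genes were 17.3% and 23.9%. The median log2 fold change of the 7 was -0.02, as was that of all tested genes. A two-sided exact permutation test on 4 libraries has 0.33 as its smallest p, so none was run for single genes.

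Of the storage genes, Fth1 (Entrez Gene 14319, chromosome 19 from 10057193 to 10059582), whose product holds the ferroxidase site of ferritin, had 884 and 922 RPKM in wild-type against 1187 and 1095 in G85R. Both G85R values lay above both wild-type values, at 1.19 to 1.34 times over the 4 pairs of libraries. The mean RPKM was 903 ± 27.0 for wild-type compared with 1141 ± 64.9 for G85R (SD, n = 2 libraries each). On the log2 scale the difference was 0.34 (standard error 0.09, 95% interval 0.12 to 0.55), compared with 0.06 between the wild-type and 0.12 between the G85R replicates, and the adjusted p from limma was 0.230. In the study's log-linear likelihood ratio test, taken here as a Poisson model of rounded RPKM, Fth1 had a Benjamini-Hochberg p of 2.06e-10 and was the only one of the 9 genes called. That test called 0.228% of all 27189 genes but 4.85% of the 763 genes whose RPKM averaged 100 or more, and it takes an RPKM as a count.

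Ftl1 (14325, chromosome 7 from 52713314 to 52715254), the light chain gene, was listed at 0.106 and 0.162 RPKM in wild-type against 0.642 and 0.534 in G85R. Behind these values stood an estimated 3 and 5 wild-type reads, compared with 17 and 15 G85R reads. The G85R values were the higher ones, but they rest on few reads. With the minimum mean RPKM lowered to 0.1, where 0.623% of 15242 genes were called, the adjusted p of Ftl1 from limma was 0.129, and without a minimum it was 0.461.

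In the uptake group, Tfrc had the largest difference of the 7 tested members. Tfrc (22042, chromosome 16 from 32609006 to 32632880) had 53.4 and 44.5 RPKM in wild-type against 73.1 and 72.3 in G85R. The G85R values were nearly equal, and both lay above the wild-type values, at 1.35 to 1.64 times over the 4 pairs. The means of Tfrc were 49.0 ± 6.27 and 72.7 ± 0.519 RPKM (SD, n = 2 each), from an estimated 3984 to 5910 reads per library. The log2 fold change was 0.58 (standard error 0.12, 95% interval 0.29 to 0.86), and the adjusted p from limma was 0.122. By unadjusted p it ranked 178 of the 11530 tested genes. Without 1 library at a time the log2 fold change of Tfrc ranged from 0.44 to 0.71 and the adjusted p from limma from 0.0537 to 0.256.

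Trf (22041, chromosome 9 from 103106331 to 103132774) had 96.2 and 101 RPKM in wild-type against 99.9 and 79.2 in G85R. The genotypes overlapped, and only G85R replicate 2 lay below the others. The log2 fold change of -0.15 (95% interval -0.46 to 0.16, adjusted p = 0.765 from limma) became 0.019 without that library. Slc11a2 (18174, chromosome 15 from 100218329 to 100255503) had 10.9 and 11.7 RPKM in wild-type against 12.3 and 12.4 in G85R. The G85R values of Slc11a2 lay just above those of wild-type, with a log2 fold change of 0.12 (95% interval -0.15 to 0.40, adjusted p = 0.783 from limma).

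Slc40a1 (53945, chromosome 1 from 45964915 to 45982439), the exporter, had 0.901 and 0.781 RPKM in wild-type against 0.609 and 0.563 in G85R, from an estimated 96, 88, 59 and 58 reads. Both G85R values lay below both wild-type values. With a minimum mean RPKM of 0.1 its log2 fold change was -0.45 (standard error 0.25) with an adjusted p from limma of 0.577.

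Of the regulators, Ireb2 (64602, chromosome 9 from 54711562 to 54760341) had 6.24 and 6.20 RPKM in wild-type against 5.24 and 4.88 in G85R. The wild-type values were nearly equal and both G85R values lower, with a log2 fold change of -0.29 (95% interval -0.60 to 0.01, adjusted p = 0.476 from limma). Aco1 (11428, chromosome 4 from 40090114 to 40146042), whose product is also the cytosolic aconitase, had 7.60 and 7.95 RPKM in wild-type against 6.96 and 7.54 in G85R. The genotypes of Aco1 were separate by little, with a log2 fold change of -0.10 (95% interval -0.39 to 0.19, adjusted p = 0.860 from limma). Hmox2 (15369, chromosome 16 from 4726361 to 4766742) had 131 and 109 RPKM in wild-type against 122 and 114 in G85R, the G85R values lying between the others. Its log2 fold change was -0.02 (95% interval -0.30 to 0.26, adjusted p = 0.978 from limma), a sign that turned with rescaling and with the library left out.

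**Figure D3:**
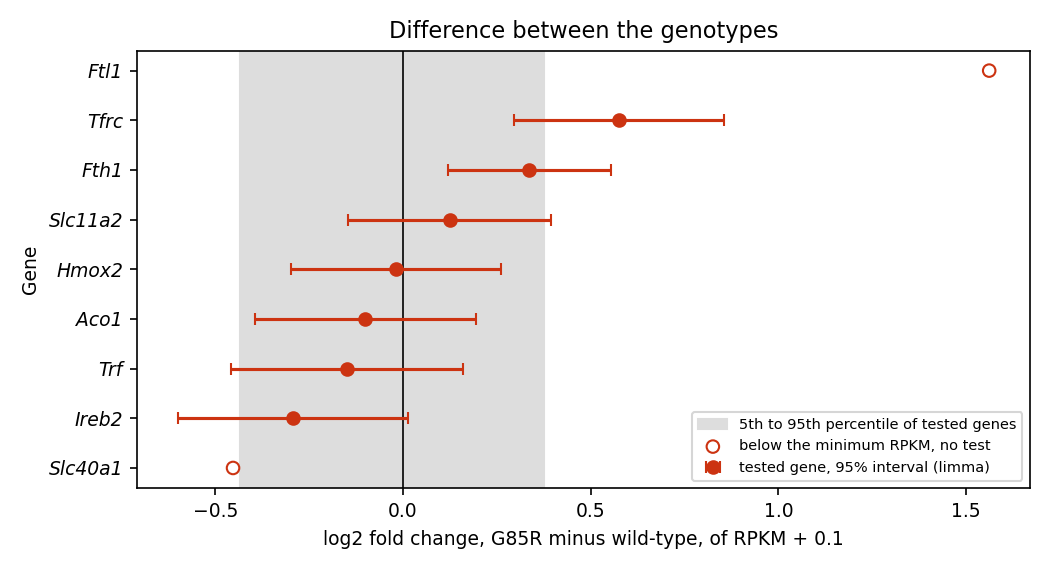
Log2 fold change of RPKM + 0.1, G85R minus wild-type, with 95% intervals from limma for the 7 tested genes and open circles for the 2 below the minimum RPKM. The grey band spans the 5th to 95th percentile of all tested genes, -0.43 to 0.38. The intervals of Tfrc and Fth1 lie above 0 before adjustment for the number of genes, and those of the other 5 include it.

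The other genes of iron handling were described in 5 lists with 73 genes, all found in the files, 6 of them under an older symbol. Of these, 50 were tested and 0 called by limma, while 2 had an unadjusted p under 0.05, Hmox1 and Hscb, where 11.0% of all tested genes passed. The log-linear test called 0 of the 73. In 31 of the 50 the G85R mean on the log2 scale was the higher and in 19 the lower. Of all 11530 tested genes, by contrast, 5218 were higher and 6312 lower. The median log2 fold change of the 50 was 0.05, compared with -0.02 over all tested genes. The genotypes were separate in 18 of the 50, compared with 41.2% of all tested genes.

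In the list of iron entry and traffic 8 of 16 genes were tested, with a median log2 fold change of 0.07. Its most abundant gene was Slc22a17, the receptor for lipocalin 2, at 297 and 359 RPKM in wild-type against 348 and 339 in G85R. Lcn2, the lipocalin itself, had the largest positive difference, with 10.7 and 18.0 RPKM in wild-type against 17.3 and 19.1 in G85R. The genotypes of Lcn2 overlapped (log2 fold change 0.39, adjusted p = 0.624 from limma). Slc39a14, a transporter of iron outside transferrin, had the largest negative one, at -0.20, with 12.1 and 13.3 RPKM against 10.8 and 11.2. Trfr2, the second transferrin receptor, stayed below 1 RPKM in all 4 libraries.

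Of 6 genes of ferritin turnover and iron sensing 3 were tested, Pcbp2, Pcbp1 and Fbxl5, with a median log2 fold change of 0.06. Pcbp2, an iron chaperone for ferritin, was the most abundant, with 139 and 112 RPKM in wild-type against 155 and 134 in G85R. Fbxl5, which directs the iron regulatory proteins to degradation, had the smallest difference, 0.05, with overlapping genotypes. The 8 genes of export and systemic control, among them the ferroxidases Cp and Heph, all had a mean below 1 RPKM. Together they summed to 1.03 to 1.51 RPKM per library, and Hamp1, the hepcidin gene, was listed at 0 in all 4.

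In the list of heme genes 16 of 20 were tested, 12 with a higher G85R mean, and the median log2 fold change was 0.10. Hmox1, the inducible heme oxygenase, had 5.93 and 6.50 RPKM in wild-type against 10.4 and 9.38 in G85R. The genotypes of Hmox1 were clearly separate, with a log2 fold change of 0.66 (standard error 0.13), and the adjusted p from limma was 0.109. It was higher than the difference of any of the 7 tested members. Blvra, biliverdin reductase A, the next enzyme of the pathway, had the largest negative difference of the list, -0.26, with 39.5 and 32.7 RPKM in wild-type against 30.0 and 30.2 in G85R. Urod, the most abundant of the list, differed by 0.11.

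All 23 genes of iron-sulfur cluster assembly were tested. Of these, 11 were higher and 12 lower in G85R, and the median was -0.01. The extremes were Hscb, the cochaperone of the pathway, at 0.41 (adjusted p = 0.418 from limma), and the gene listed as A230051G13Rik and now named Iba57, at -0.48 (adjusted p = 0.470 from limma). Glrx5, the most abundant, had 160 and 170 RPKM in wild-type against 148 and 157 in G85R, a log2 fold change of -0.11.

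**Figure D4:**
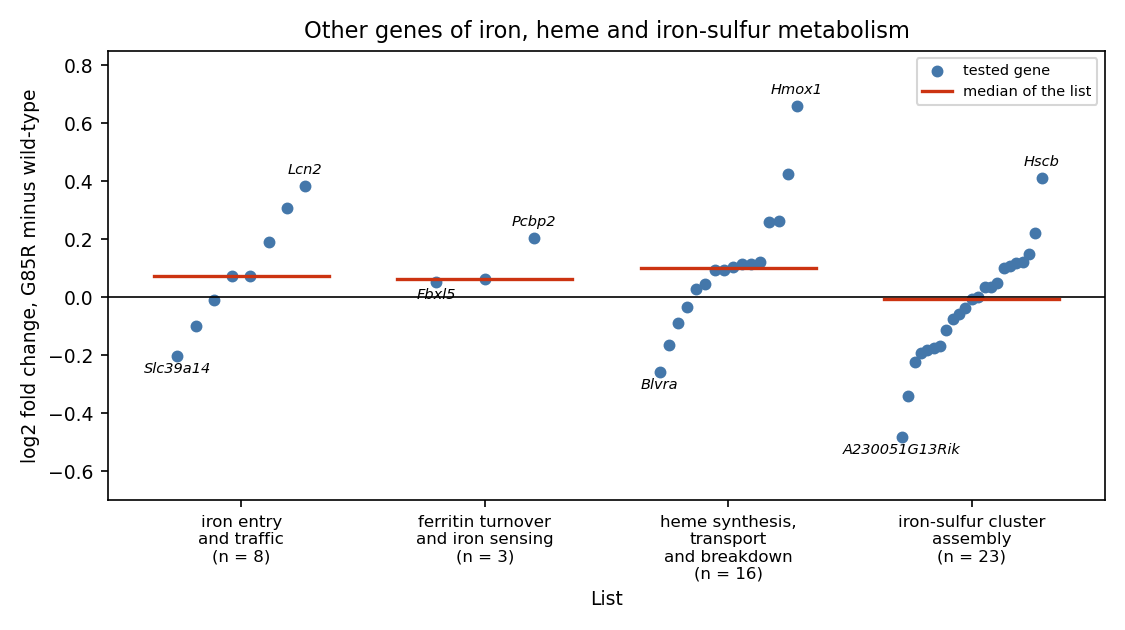
Log2 fold change of RPKM + 0.1, G85R minus wild-type, for each of the 50 tested genes of the lists, sorted within the list, with the median as a red line. The lowest and highest gene of each list are named. Hmox1 has the largest value, 0.66, and the medians lie between -0.01 and 0.10.

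Markers of other cells differed between the libraries too. Of the red blood cell genes, Hbb-b1, a beta globin, rose from 1.75 and 2.00 RPKM in wild-type to 10.7 and 10.2 in G85R (log2 fold change 2.42, adjusted p = 0.00173 from limma). Hba-a2 was at 0 in 3 of the 4 libraries, and 2 of the 4 listed globin genes were not found in the files. Alas2, the heme synthesis enzyme of red cells, had 0.0707 and 0.0999 RPKM in wild-type against 0.678 and 0.570 in G85R, below the minimum for the test. Tfrc, which immature red cells also express, was at 72.3 RPKM or more in these G85R libraries. The part of red cell RNA in the difference of Tfrc, Fth1 or Hmox1 was not tested.

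The 10 microglial markers summed to 17.6 and 18.8 RPKM in wild-type against 43.5 and 20.3 in G85R, so that G85R replicate 1 stood apart. Of the 8 tested, all had a higher G85R mean, compared with 5218 of all 11530 tested genes, and the median log2 fold change was 0.62. An unadjusted p under 0.05 was found for 3 of the 8, where 11.0% of all tested genes passed, and 0 were called by limma. C1qb, the most abundant of them, had 8.82 RPKM in G85R replicate 1 and 4.35 to 4.75 in the other libraries. C1qa, another complement gene named after its values were seen, had 3.29 and 3.24 RPKM in wild-type against 11.0 and 4.14 in G85R (log2 fold change 1.03, adjusted p = 0.417 from limma). The 8 astrocyte markers summed to 452 and 460 RPKM in wild-type against 630 and 540 in G85R, most of it from S100b. Of these 8, all tested, 7 had a higher G85R mean and 1 a lower one, with a median log2 fold change of 0.27. At an unadjusted p under 0.05 there were 2, where 11.0% of all tested genes passed, and limma called 0. Gfap, named after its values were seen, had 11.5 and 17.1 RPKM in wild-type against 91.9 and 28.4 in G85R (log2 fold change 1.86, adjusted p = 0.212 from limma). The log-linear test called Gfap alone of the 8, and 0.228% of all 27189 genes. Without G85R replicate 1 the log2 fold changes were 0.28 for Fth1 and 0.57 for Tfrc. The part of microglial or astrocyte RNA in the differences of Fth1, Tfrc or Hmox1 was not tested. Markers of 8 endothelial genes summed to 12.4 and 12.6 RPKM in wild-type against 11.0 and 10.6 in G85R, with Cldn5 as the most abundant.

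The 12 oligodendrocyte markers summed to 975 and 908 RPKM in wild-type against 1161 and 889 in G85R, with Mbp, the myelin basic protein gene, at 302 to 412. Trf and the summed markers were both lower in G85R replicate 2 than in replicate 1, while in wild-type Trf was higher and the markers lower in replicate 2. The part of oligodendrocyte RNA in the level of Trf was not tested. Of the 12 genes of this list, all tested, limma called 1, Aspa, where it called 0.642% of all tested genes. Aspa rose from 1.33 and 1.76 to 5.63 and 4.57 RPKM (log2 fold change 1.66, adjusted p = 0.0242 from limma). Of the 12 genes, 7 had a higher G85R mean and 5 a lower one, with a median log2 fold change of 0.05. The 6 motor neuron markers summed to 1370 and 1642 RPKM in wild-type against 1191 and 1452 in G85R, and 0 of them were called by limma. An unadjusted p under 0.05 was found for 1 of the 6, where 11.0% of all tested genes passed. That gene, Prph, was called by the log-linear test.

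**Figure D5:**
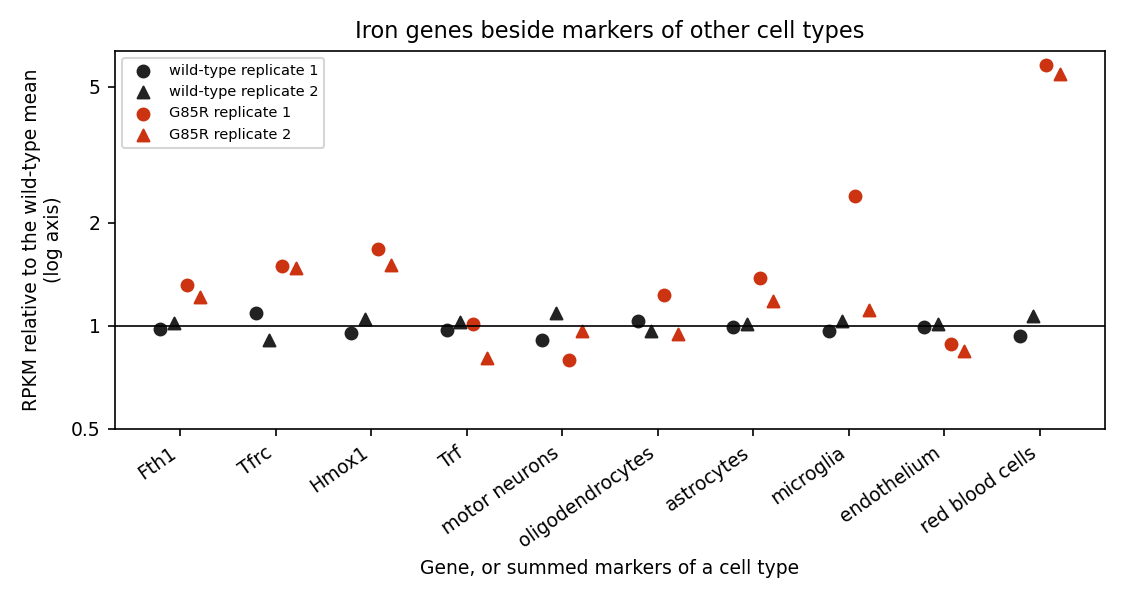
RPKM of 4 iron genes and summed RPKM of 6 marker lists in each library, divided by the wild-type mean, on a log axis, with symbols as in the plot of levels. Fth1, Tfrc and Hmox1 are higher in both G85R libraries at 1.21 to 1.67 times the wild-type mean, microglial markers mainly in G85R replicate 1 at 2.39 times, and red blood cell markers in both at 5.78 and 5.46 times. The red blood cell sum is nearly all from 1 gene, Hbb-b1.

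The likeness of other genes was measured as the root mean square difference of log2(RPKM + 0.1) over the 4 libraries, after each gene was centered on its mean. Of the 9 genes Ftl1 had the widest range, 1.85, and was closest to Aspa at 0.06, the lower entry of Hbb-b1 at 0.08, Card9 at 0.11, Ell3 at 0.14 and Cyp2s1 at 0.16. These distances of Ftl1 rest on an estimated 3 to 17 reads per library and depend on the 0.1 added. Its G85R level was 2.95 times that of wild-type on this scale, but 4.39 times by the mean RPKM. For Tfrc, chosen after its values were seen, the closest gene was Hsp110, a cytosolic chaperone with 175 and 151 RPKM in wild-type against 245 and 240 in G85R, at 0.02. The next were Ccdc99, Tnfrsf13c, Nudt19 and Gm166, and 51 tested genes in all lay within 0.1 of Tfrc. Within 0.1 of Fth1, also chosen afterwards, there were 560, so that its pattern was a common one.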

How the data were processed

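Motor neuron polyA RNA of 4 mice was sequenced with 75-base single-end reads. The authors mapped the reads with Bowtie 0.12.3 to mm9 and UCSC splice junctions, quantified each UCSC gene cluster with Cufflinks, and deposited RPKM, once as calculated and once with 1 read added to every gene. Reads of a gene were estimated from the difference of both values.

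For log2(RPKM + 0.1) of genes averaging 1 RPKM or more, the linear model of limma 3.58.1 was used under R 4.3.3, its eBayes step having a trend in mean level, and genes were called at an adjusted p under 0.05. Each test was first tested on simulated data. Descriptive values came from scripts in Python 3.11.15 using pandas 2.3.3, numpy 2.4.6 and scipy 1.17.1, and plots from matplotlib 3.10.9. Windows of 75 bases were compared with chromosomes 1 to 19, X and Y of NCBIM37.

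The members, lists and tests were chosen with earlier results of these data known. Named from each iron list were the most abundant gene, the largest increase and decrease, and every gene called, and from each marker list the most abundant gene and every gene called. For the most variable member the 5 nearest genes were named. Trfr2, Hamp1, Alas2, Hba-a2, Gfap, C1qa and the genes nearest to Tfrc were named after their values were seen. Alternatives were other pseudocounts, minimum RPKM, scalings, variance estimates and thresholds, the RPKM with 1 read added, a replicate block, the log-linear test and each library left out. P-values of limma rest on the spread between single mice, 2 for each genotype, with the variance shared between genes. The log-linear test sums the 2 libraries of each genotype, so that its p-values do not measure that spread.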

Additional observations from a re-analysis of the deposited data

How the results depend on the processing

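With limma 74 genes were called, and this number moved to 17 with a minimum mean RPKM of 5, to 112 without a filter, 2 of them shared, to 39 after quantile normalization, to 49 without the trend, to 142 at an adjusted p under 0.1, and between 78 and 188 with 1 library left out. Of the 7 tested members 0 were called by limma, also with 1 library left out, and of all 9 members 1 by the log-linear test (Fth1). With replicate number as a block there were 527 calls (4.57%), 2 of them members, Fth1 (adjusted p = 0.0428 from limma) and Tfrc (adjusted p = 0.00516 from limma), and 1 of the other iron genes, Hmox1. The labels do not say what replicates of the same number share. Across genes, the differences between replicates 1 and 2 of both genotypes had a correlation of 0.22. Of the other iron genes 0 to 1 were called with 1 library left out, the 1 being Alad without G85R replicate 1. Of the marker genes 2 were called, among 74 calls in all 11530 tested genes. There was 1 among 17 calls with a minimum mean RPKM of 5, 0 among 112 without a filter and 5 among 527 with the replicate block. More marker genes were called without G85R replicate 2, where more of all genes were called too. The genotypes were separate in 7 of the 9 members and in 6 after rescaling by the median ratio. For neither count is a matching share of all genes given here, so these counts cannot be judged against a background. Of the 7 tested members the genotypes were separate in 5, compared with 41.2% of all tested genes. After quantile normalization they were separate in 4, for which no share of all tested genes is given either.

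The log2 fold change of Hmox2 was 0.0099 after rescaling by the median ratio and ranged from -0.15 to 0.11 with 1 library left out, and that of Trf from -0.32 to 0.019, the latter without G85R replicate 2. The other 5 tested members kept their sign under all alternatives. Ftl1 and Slc40a1 kept theirs with a minimum of 0.1, without a filter and in the log-linear test, and were not examined under rescaling, other pseudocounts, the block or with a library left out. The causes were not tested. With an arm of 1 library, that library was assumed to vary like the other group. At this depth the levels of Ftl1 and Slc40a1 rest on few reads.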
